A study of Homo sapiens with 12 samples.

Results

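The axis described here comprises 9 genes of the TGF-beta and activin pathway in HCC827 cells, a lung adenocarcinoma line whose EGFR carries an activating mutation. They were the ligand genes TGFB1, TGFB2 and INHBA, the antagonist FST, the receptor TGFBR2, the intracellular genes SMAD3 and SKIL, and the induced genes PMEPA1 and TGFBI. Every probe whose platform gene symbol was 1 of these 9 names was taken, which gave 16 of the 48104 probes used. Of the 16 probes, 12 were detected (detection p under 0.05) on at least 3 of the 12 arrays and were tested, among 25896 such probes in all. The probes that did not reach this limit were the only probe of TGFB1, detected on 0 of 12 arrays, and 1 probe each of SKIL (0 of 12), PMEPA1 (1 of 12) and TGFBR2 (2 of 12).

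TGF-beta and activin are secreted dimers that bring together type II and type I receptor kinases, which phosphorylate SMAD2 and SMAD3. These enter the nucleus with SMAD4 and change transcription, and part of the induced genes encode inhibitors that close the loop. Follistatin, the product of FST, binds activin outside the cell and keeps it from its receptors. In epithelial cells the pathway is known for growth arrest, matrix production and loss of epithelial character.

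The 12 bead arrays fell by title into 4 groups of 3, and all measured RNA of the HCC827 cells. HCC827 cells grown alone had been given DMSO (DMSO monoculture) or gefitinib, an inhibitor of the EGFR kinase (gefitinib monoculture). The other groups shared medium with fibroblasts of the MRC-5 line, derived from normal lung, through inserts with 1 µm pores, without the drug (co-culture) or with it (gefitinib co-culture). Gefitinib was used at 0.5 µM and added at 24 h, a PBS rinse followed, and the RNA was taken after a further 48 h. Co-culture was done in EMEM and routine growth in RPMI, each with serum. The medium of the monoculture groups in the last 48 h, any vehicle in the co-culture without the drug, and the presence of the drug after the rinse are not stated in the labels. The titles of all co-culture samples, and of no monoculture sample, also carry the suffix WH, which is not explained. A difference between the cultures therefore cannot be told apart from one of medium or of whatever this suffix marks. The labels do not say that the 3 arrays of a group came from separate cultures, so each p-value measures the spread between these samples, which may be technical. In RNA of whole cultures, a change in the number of cells that express a gene and a change in RNA per cell cannot be told apart.

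The share of probes detected was 43.4% to 46.5% per array. The median scanner intensity lay between 99.1 and 103 in monoculture and between 106 and 110 in co-culture, and the rows of the co-culture arrays had to be assigned to probes through the authors' normalized values. Of 11 markers of HCC827 and epithelial cells, 10 were detected on at least 1 array, and SFTPC, a surfactant gene of the alveolar epithelium, was detected on 0 of 12. Of 17 fibroblast markers, 12 were detected on at least 1 array. Of these, 9 were detected on some array of DMSO monoculture, 7 of gefitinib monoculture, 8 of co-culture and 10 of gefitinib co-culture. VIM and COL5A1 were detected on all 12 arrays, COL1A1 and LUM on 10 and DCN on 9, monocultures included, while FAP, PDGFRA, PDGFRB, THY1 and POSTN were detected on 0 of 12.

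The upstream windows of FST, TGFB2 and PMEPA1 are shown because these genes had the largest changes of the 9 with gefitinib in monoculture, where TGFB2 and PMEPA1 rose and FST fell. Each is the 250 bases before an annotated start, 5′ to 3′ on the gene's strand, from RefSeq on GRCh38.p14. They lie at chr5:53480379-53480628 (plus strand) for FST, chr1:218345086-218345335 (plus strand) for TGFB2 and chr20:57710578-57710827 (minus strand) for PMEPA1. Capitals mark the SMAD box CAGACA, a short motif bound by SMAD3 and SMAD4, searched on both strands (CAGACA or TGTCTG).
FST: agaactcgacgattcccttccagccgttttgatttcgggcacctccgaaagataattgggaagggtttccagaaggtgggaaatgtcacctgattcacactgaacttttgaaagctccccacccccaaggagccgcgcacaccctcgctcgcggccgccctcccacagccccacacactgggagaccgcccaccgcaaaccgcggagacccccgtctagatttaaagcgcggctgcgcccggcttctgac
TGFB2: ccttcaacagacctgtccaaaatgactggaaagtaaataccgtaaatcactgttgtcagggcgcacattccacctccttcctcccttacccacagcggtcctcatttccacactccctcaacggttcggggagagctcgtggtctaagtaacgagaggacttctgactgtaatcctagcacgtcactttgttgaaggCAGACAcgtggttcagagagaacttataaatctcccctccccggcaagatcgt
PMEPA1: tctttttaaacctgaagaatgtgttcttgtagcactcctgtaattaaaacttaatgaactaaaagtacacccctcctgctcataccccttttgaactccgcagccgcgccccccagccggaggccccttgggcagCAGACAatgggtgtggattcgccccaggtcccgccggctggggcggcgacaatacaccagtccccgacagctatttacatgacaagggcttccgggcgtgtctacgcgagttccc
The TGFB2 window held 1 SMAD box that began 53 bases before the start, and the PMEPA1 window 1 that began 115 bases before it. PMEPA1 has 4 annotated starts, and the box lay in 1 of their 4 windows, the one shown. A gene with several windows has more places for a match than the share per window below describes. The FST window held 0. Among the members not shown, 1 window of SMAD3 also held a SMAD box, which began 134 bases before the start, and SMAD3 passed the test in no comparison. Over 34788 windows of this length, 13.6% held a SMAD box, 4.21% the AP-1 motif TGACTCA or TGAGTCA, and 1.39% the E2F motif TTTCCCGC or GCGGGAAA on either strand. Neither the AP-1 nor the E2F motif was found in the 3 windows shown. A match here describes letters only, and no binding was measured.

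**Figure D1:**
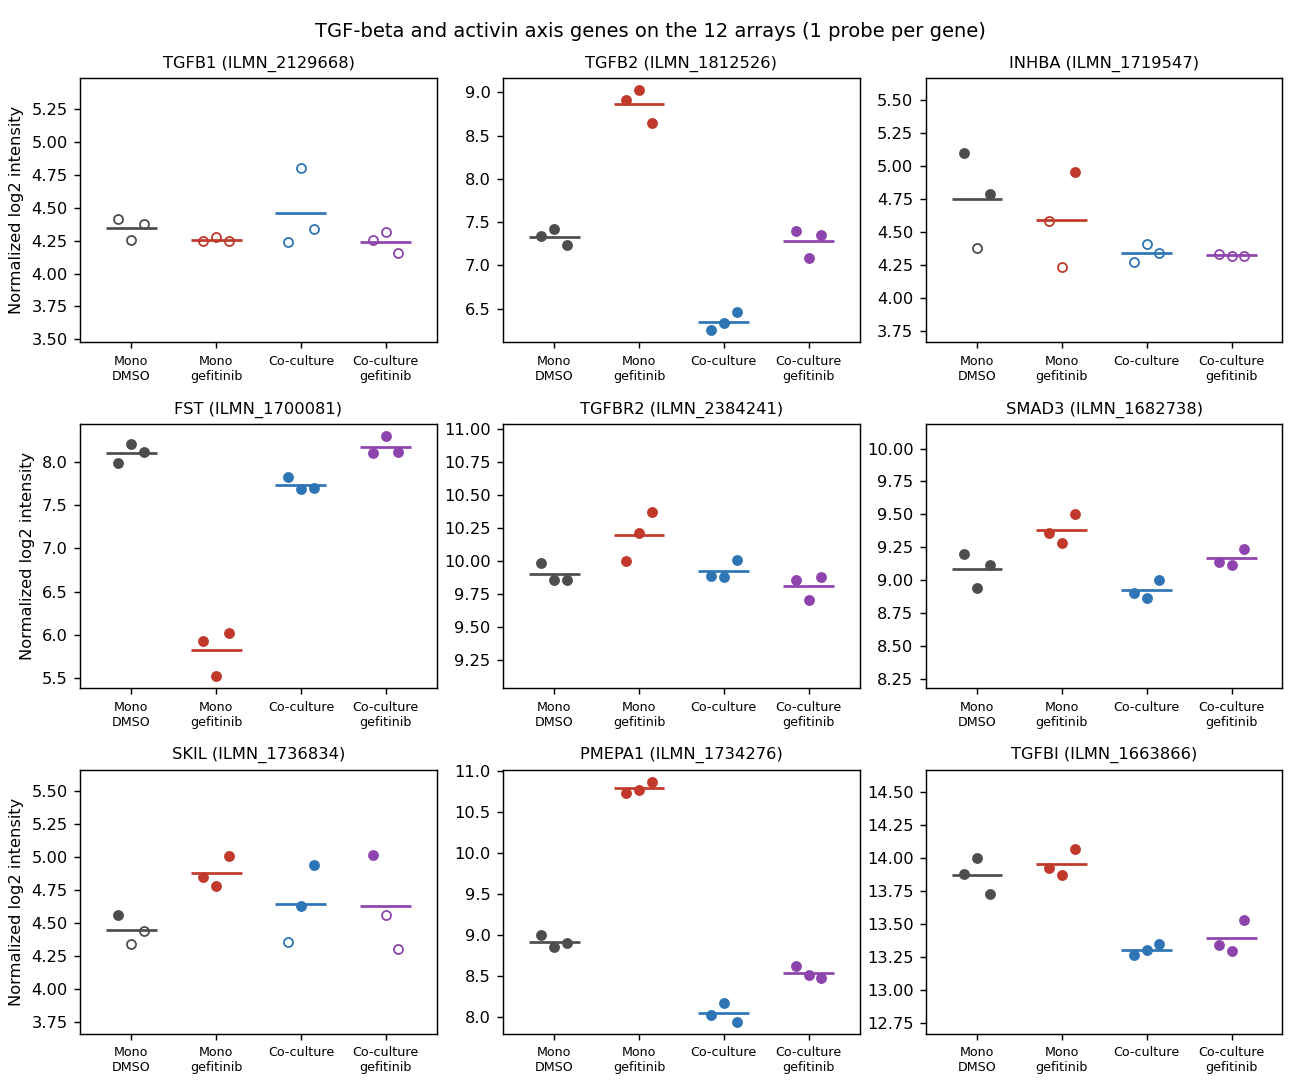
Normalized log2 intensity of 1 probe per gene on each of the 12 arrays, with the mean of the 3 arrays of a group as a line. Filled points were detected (detection p under 0.05) and open points were not, each panel has its own axis, and FST is low only in gefitinib monoculture (5.52 to 6.02) while TGFB2 and PMEPA1 are highest there.

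TGFB2, which encodes the TGF-beta2 ligand, was raised by gefitinib in both cultures and was lower in co-culture than in monoculture. Its normalized log2 intensity was 7.34, 7.42 and 7.24 on the arrays of DMSO monoculture and 8.91, 9.02 and 8.65 on those of gefitinib monoculture. In co-culture it was 6.25, 6.33 and 6.46 without the drug and 7.40, 7.09 and 7.35 with it. The groups did not overlap within either culture, and the gefitinib co-culture overlapped with DMSO monoculture. Gefitinib raised TGFB2 by 1.53 ± 0.13 (log2 change ± SE, n = 3 per group, limma adjusted p = 7.68e-06), which is 2.89-fold, in monoculture. In co-culture the rise was 0.93 ± 0.13 (limma adjusted p = 0.00565), or 1.91-fold. The gene was lower in co-culture than in monoculture, with a log2 change of -0.98 ± 0.13 without the drug (limma adjusted p = 0.00258) and of -1.58 ± 0.13 under gefitinib (limma adjusted p = 5.64e-06). The gefitinib effect in co-culture minus that in monoculture was -0.60 ± 0.18, which missed the threshold (limma adjusted p = 0.0611, 95% interval -0.999 to -0.195), but passed it under some alternatives (adjusted p = 5.20e-04 to 0.167 over all of them). The call for gefitinib in co-culture ended when only the arrays compared were fitted (adjusted p = 0.0832). The change there was 0.54 and the change with co-culture without the drug -0.58 on the authors' normalized values.

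The other ligand genes were near the detection limit. INHBA, which encodes the subunit of activin A, was detected on 3 of 12 arrays, 2 of DMSO monoculture and 1 of gefitinib monoculture, and on 0 of 6 arrays of the co-cultures. Its levels were 5.10, 4.38 and 4.78 with DMSO and 4.58, 4.23 and 4.96 with gefitinib in monoculture, and they lay between 4.27 and 4.41 on the 6 co-culture arrays. The groups overlapped, and no comparison of INHBA passed the test, with a change of -0.16 ± 0.20 for gefitinib in monoculture (limma adjusted p = 0.639). TGFB1, which encodes the TGF-beta1 ligand, had 1 probe, and this was not detected on any array, so only a bound on its RNA is available in these cells.

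FST fell with gefitinib in monoculture and was the member with the largest change there. Its brighter probe (ILMN_1700081) stood at 8.00, 8.21 and 8.12 with DMSO and at 5.93, 5.52 and 6.02 with gefitinib in monoculture. In co-culture it stood at 7.83, 7.69 and 7.70 without the drug and at 8.11, 8.30 and 8.12 with it. All 3 arrays of gefitinib monoculture were below the other 9, and the 3 arrays of gefitinib co-culture spanned a range that overlapped with that of DMSO monoculture. With gefitinib in monoculture FST fell by 2.29 (log2 change -2.29 ± 0.14, limma adjusted p = 6.10e-07), a fall of 4.88-fold. In co-culture the change was 0.44 ± 0.14, which missed the threshold (limma adjusted p = 0.256, 95% interval 0.14 to 0.74), although the groups did not overlap. The difference between these effects was 2.72 ± 0.19 (limma adjusted p = 1.34e-05, 95% interval 2.30 to 3.15), and its size stood at percentile 99.98 of all probes tested. Under gefitinib FST was 5.11-fold higher in co-culture than in monoculture (2.35 ± 0.14, limma adjusted p = 5.01e-07), whereas without the drug the change was -0.37 ± 0.14 (limma adjusted p = 0.194). The changes that missed the threshold passed it under some alternatives, among them the authors' normalized values (adjusted p over all alternatives 0.0267 to 0.468 for gefitinib in co-culture and 0.0371 to 0.397 for co-culture without the drug). On the authors' normalized values the called changes were smaller, at -1.36 for gefitinib in monoculture, 1.41 for co-culture under gefitinib and 1.69 for their difference.

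The second FST probe (ILMN_1712896), annotated to another transcript of the gene, was dimmer and followed the same order. It stood at 5.18, 5.82 and 5.41 with DMSO, at 4.42, 4.23 and 4.35 with gefitinib, at 4.50, 4.68 and 4.99 in co-culture and at 5.86, 5.68 and 5.43 in gefitinib co-culture. The probe was not detected on any array of gefitinib monoculture, so that group gives a bound. In the intensities as normalized here, the level was at least 2.04-fold lower there than with DMSO and at least 2.32-fold lower than in gefitinib co-culture. The tests used the measured values (limma adjusted p = 8.70e-04 and 2.41e-04) and not the bound. For this bound, each undetected array was set to the lowest value detected on it, or to the probe's own value where that was higher. With the undetected group set in this way, the gefitinib effect in co-culture lay above that in monoculture by at least 1.96 on the log2 scale (limma adjusted p = 4.50e-04 for the measured values). On the authors' normalized values the measured log2 changes were smaller, at -0.399 with gefitinib in monoculture, 0.466 with co-culture under gefitinib and 0.696 for the difference of the gefitinib effects. For this probe the rise with gefitinib in co-culture (0.93 ± 0.18, limma adjusted p = 0.0444) and the fall with co-culture without the drug (log2 change -0.75 ± 0.18, limma adjusted p = 0.0479) also passed the threshold, but narrowly. On the authors' normalized values neither passed (0.297, adjusted p = 0.0766, and -0.23, adjusted p = 0.11). Apart from leaving out 1 array, 6 and 7 alternatives ended them, among them these values and the fit of only the arrays compared. The first ended without any 1 of 9 arrays, namely all but DMSO monoculture 1 and 2 and co-culture 3 (adjusted p = 0.0614 to 0.148, change 0.816 to 1.05). The second ended without any 1 of 9 arrays, namely all but DMSO monoculture 1, co-culture 3 and gefitinib co-culture 3 (adjusted p = 0.0562 to 0.156, change -0.78 to -0.573).

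**Figure D2:**
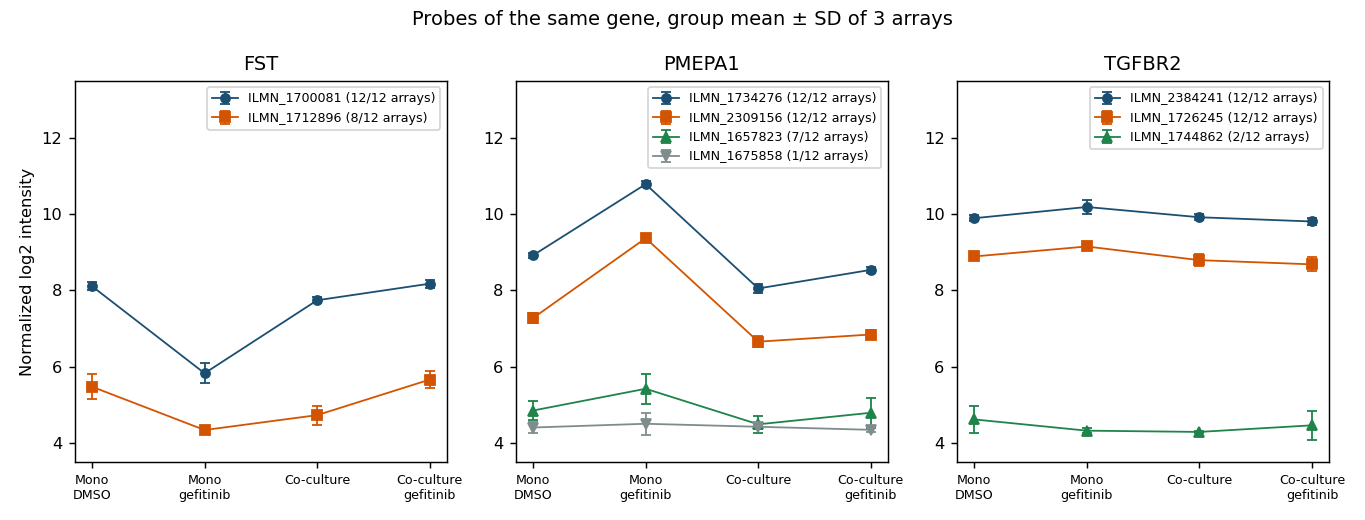
Group mean ± SD of 3 arrays for every probe of FST, PMEPA1 and TGFBR2, in normalized log2 intensity, with the number of arrays on which each probe was detected. Lines join the groups of 1 probe only to guide the eye, and levels of different probes are not comparable; both FST probes are lowest in gefitinib monoculture, and the 2 brighter PMEPA1 probes are highest there.

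TGFBR2, the type II receptor of TGF-beta, changed little. The brighter probe (ILMN_2384241) had levels of 9.98, 9.86 and 9.85 with DMSO, 10.00, 10.21 and 10.37 with gefitinib, 9.88, 9.88 and 10.01 in co-culture and 9.85, 9.70 and 9.88 in gefitinib co-culture. The 2 highest values were in gefitinib monoculture, whose arrays lay above those with DMSO, while its lowest array overlapped with the co-culture. Gefitinib in monoculture gave a change of 0.30 ± 0.11 that missed the threshold (limma adjusted p = 0.0937, 95% interval 0.04 to 0.55; adjusted p = 0.0129 to 0.599 over the alternatives). Under gefitinib the receptor was lower in co-culture than in monoculture, with a log2 change of -0.38 ± 0.11 for this probe (limma adjusted p = 0.0286) and -0.47 ± 0.12 for a second probe (limma adjusted p = 0.0126). With median scaling of the arrays both calls ended (adjusted p = 0.236 and 0.095). That of the first probe also ended when only the arrays compared were fitted (adjusted p = 0.0899) and without any 1 of gefitinib monoculture 2 and 3 and gefitinib co-culture 1 and 2 (adjusted p = 0.0526 to 0.105, change -0.402 to -0.293).

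SMAD3 and SKIL passed the test in none of the 5 comparisons. SMAD3, the transcription factor that carries the TGF-beta and activin signal, stood at 9.20, 8.95 and 9.11 with DMSO, at 9.36, 9.29 and 9.50 with gefitinib, at 8.90, 8.86 and 9.00 in co-culture and at 9.14, 9.12 and 9.24 in gefitinib co-culture. The arrays with gefitinib lay above those without it in each culture, with changes of 0.30 ± 0.11 in monoculture (limma adjusted p = 0.0684, and 0.016 to 0.476 over the alternatives) and 0.24 ± 0.11 in co-culture (limma adjusted p = 0.480). SKIL, which encodes SnoN, a co-repressor of SMADs that is itself induced by TGF-beta, was detected on 7 of 12 arrays. Its levels were 4.56, 4.34 and 4.44 with DMSO and 4.85, 4.78 and 5.01 with gefitinib, without overlap, and the change of 0.43 ± 0.19 missed the threshold (limma adjusted p = 0.134). It passed when only the arrays compared were fitted (adjusted p = 0.0374, and 0.0374 to 0.294 over the alternatives), and it was 0.141 on the authors' normalized values. In co-culture they were 4.36, 4.63 and 4.94 without the drug and 5.02, 4.56 and 4.30 with it, which overlapped.

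PMEPA1, a TGF-beta target whose product holds back the receptor-regulated SMADs, had the largest rise with gefitinib in monoculture among the members. Its brightest probe (ILMN_1734276) went from 9.00, 8.86 and 8.91 with DMSO to 10.73, 10.77 and 10.87 with gefitinib. In co-culture it stood at 8.03, 8.18 and 7.95 without the drug and at 8.63, 8.51 and 8.48 with it. No 2 groups overlapped, and both co-culture groups lay below DMSO monoculture. The rise in monoculture was 1.87 ± 0.10 (limma adjusted p = 3.01e-07), or 3.65-fold. In co-culture the change was 0.49 ± 0.10, just short of the threshold (limma adjusted p = 0.0556), and the difference between these effects was -1.38 ± 0.14 (limma adjusted p = 1.28e-04). The change in co-culture passed with 1 probe per gene in the fit (adjusted p = 0.0238) and on the authors' normalized values (0.386, adjusted p = 0.00678), with a range of 0.00163 to 0.313 over all alternatives. PMEPA1 was lower in co-culture than in monoculture, with a log2 change of -0.87 ± 0.10 without the drug (limma adjusted p = 0.00136) and of -2.25 ± 0.10 under gefitinib (limma adjusted p = 1.85e-07), the latter a fall of 4.76-fold.

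A second probe of PMEPA1 (ILMN_2309156) gave the same directions. It stood at 7.35, 7.13 and 7.35 with DMSO, at 9.39, 9.43 and 9.29 with gefitinib, at 6.69, 6.50 and 6.77 in co-culture and at 6.96, 6.81 and 6.75 in gefitinib co-culture. Here the co-culture groups overlapped, and the change with gefitinib was 0.19 ± 0.11 (limma adjusted p = 0.667), against 2.10 ± 0.11 in monoculture (limma adjusted p = 3.29e-07). Its difference of the effects was -1.91 ± 0.16 (limma adjusted p = 3.80e-05). Its fall with co-culture without the drug, at -0.62 ± 0.11 (limma adjusted p = 0.0131), ended without DMSO monoculture 3 or without co-culture 2 (adjusted p = 0.0526 to 0.0598, change -0.585 to -0.543), and also when only the arrays compared were fitted (adjusted p = 0.072). On the authors' normalized values it was -0.389. Another, dim probe (ILMN_1657823, detected on 7 of 12 arrays) passed the test in no comparison, with changes of 0.57 ± 0.24 in gefitinib monoculture (limma adjusted p = 0.119) and -0.63 ± 0.24 with co-culture under gefitinib (limma adjusted p = 0.0746).

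TGFBI, which encodes a secreted matrix protein named for its induction by TGF-beta, was lower in co-culture whether or not gefitinib was given, and no effect of gefitinib on it passed the test. Its levels were 13.88, 14.01 and 13.73 with DMSO, 13.93, 13.87 and 14.07 with gefitinib, 13.27, 13.31 and 13.35 in co-culture and 13.34, 13.30 and 13.53 in gefitinib co-culture. All 6 monoculture arrays lay above all 6 co-culture arrays, and within each culture the groups overlapped. The change with co-culture was -0.56 ± 0.11 without the drug (limma adjusted p = 0.0182) and -0.57 ± 0.11 under gefitinib (limma adjusted p = 0.00265), each a fall of 1.48-fold. Gefitinib changed it by 0.09 ± 0.11 in monoculture (limma adjusted p = 0.669, 95% interval -0.16 to 0.33) and by 0.08 ± 0.11 in co-culture (limma adjusted p = 0.878, 95% interval -0.16 to 0.33). The call without the drug ended with median scaling (adjusted p = 0.0548), with only the arrays compared (adjusted p = 0.072), and without any 1 of DMSO monoculture 1 and 2 and co-culture 1 and 2 (adjusted p = 0.0554 to 0.0799, change -0.566 to -0.498).

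**Figure D3:**
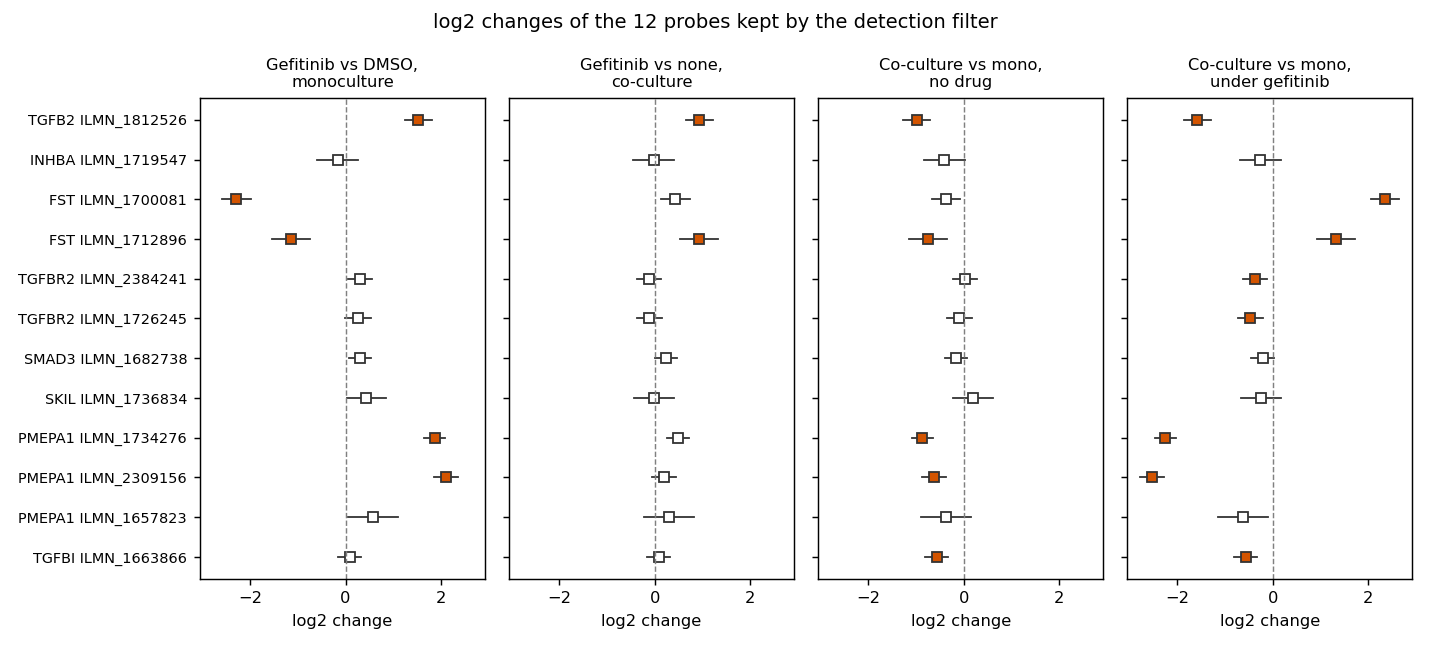
The log2 change (square) and its 95% interval (line) for the 12 probes tested, in the 4 comparisons between 2 groups; filled squares passed the test (limma adjusted p under 0.05) and open ones did not. FST and PMEPA1 have the longest distances from 0 for gefitinib in monoculture and, with the signs turned, for co-culture under gefitinib.

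Counted over the 12 probes, 5 were called for gefitinib in monoculture, 3 of them up and 2 down, against 22% of all probes tested (11.4% up and 10.6% down). For gefitinib in co-culture 2 were called, both up, against 0.772% of all probes (0.286% up and 0.487% down). Co-culture without the drug gave 5 calls, all down, against 3.68% (2.41% up and 1.28% down). Co-culture under gefitinib gave 8 calls, 2 up and 6 down, against 26.8% (12.6% up and 14.2% down). The gefitinib effect differed between the cultures for 4 probes, 2 of FST upward and 2 of PMEPA1 downward, against 10.9% of all probes (5.29% up and 5.57% down). The 12 probes represent 8 genes, and with 1 probe per gene the calls were 3, 1, 3, 5 and 2 in the same order, against 27.8%, 1.05%, 3.11%, 32.3% and 14.2% of 13577 genes. The groups did not overlap for 10, 6, 6 and 9 of the 12 probes in the first 4 comparisons, where 38.6%, 13.7%, 23% and 39.7% of all probes did not. The median change of the 8 genes was 0.30, 0.16, -0.39, -0.32 and -0.23 in the 5 comparisons in the same order. Over all genes it was 0.01, -0.003, -0.03, -0.05 and -0.03. INHBA, 1 of the 8, passed the detection filter only through monoculture arrays, so its value of -0.41 with co-culture without the drug depends on that filter. The median there lies between this value and the -0.37 of FST, and neither gene passed the threshold with these probes. The comparisons share arrays: both comparisons with DMSO monoculture use the same 3, as do both with gefitinib monoculture, so a low level in 1 group shows in each.

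The rest of the pathway was counted in 5 lists that hold none of the 9 members, with 1 probe per gene. Over all 13577 genes, 15.1% rose and 12.7% fell with gefitinib in monoculture, 0.412% and 0.641% with gefitinib in co-culture, 1.51% and 1.6% with co-culture without the drug and 13.2% and 19.1% with co-culture under gefitinib. The gefitinib effect in co-culture was above that in monoculture for 6.38% and below it for 7.79%. Among ligands and their activators, 15 of 27 were tested, and with gefitinib in monoculture 3 rose and 0 fell. THBS1, which encodes thrombospondin-1, an activator of latent TGF-beta, rose by 1.54 ± 0.18 (limma adjusted p = 8.10e-05), and ITGAV, the integrin subunit of the main latent TGF-beta activating integrins, by 1.33 ± 0.16 (limma adjusted p = 1.17e-04). For gefitinib in co-culture 0 of the 15 passed in limma, 5 of them at an unadjusted p under 0.05. With no background correction 2 passed there. Under gefitinib 7 were lower in co-culture and 0 higher, with THBS1 at -1.80 ± 0.18 and ITGAV at -1.44 ± 0.16. Co-culture without the drug gave a call of higher level for 1, INHBE, an inhibin subunit gene, and lowered 2, THBS1 (-0.87 ± 0.18) and MMP9, a matrix protease (-0.63 ± 0.15). INHBE was detected on 1 of 3 arrays with DMSO, where its mean level was 4.46, and on 3 of 3 in co-culture, at 5.33. Its change of 0.87 ± 0.20 therefore rests on a group mostly not above background, and it was 0.293 on the authors' normalized values. These 3 calls ended without any 1 of the arrays of DMSO monoculture or of co-culture 1 and 2 for INHBE and THBS1 (change 0.692 to 0.98 and -0.921 to -0.776) and without any 1 of 10 arrays for MMP9, all but DMSO monoculture 2 and gefitinib monoculture 2 (change -0.716 to -0.504).

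Of antagonists and co-receptors, 11 of 15 were tested, and gefitinib in monoculture raised 4 and lowered 1. FSTL3, a relative of follistatin that also binds activin, rose by 1.38 ± 0.14 (limma adjusted p = 2.49e-05) where FST fell. Its mean level was 7.56 with DMSO, 8.95 with gefitinib, 7.12 in co-culture and 7.47 in gefitinib co-culture. FSTL1, another follistatin-like secreted protein, rose by 1.33 ± 0.15, and ENG, the co-receptor endoglin, fell by 0.56 (log2 change -0.56 ± 0.12). In gefitinib co-culture 0 of the 11 passed against co-culture in limma, with 2 at an unadjusted p under 0.05 and 0 with no background correction. Under gefitinib, co-culture raised 2 and lowered 5, FSTL3 (-1.48 ± 0.14) and FSTL1 (-1.33 ± 0.15) being the largest falls and ENG (0.76 ± 0.12) and the co-receptor TGFBR3 (0.65 ± 0.20) the rises. The call of TGFBR3 ended without any 1 of gefitinib monoculture 2 and 3 and the 3 gefitinib co-culture arrays (change 0.516 to 0.698). Without the drug co-culture raised 1, ENG (0.49 ± 0.12), a call that ended without any 1 of 10 arrays, all but gefitinib co-culture 2 and 3 (change 0.447 to 0.552).

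Of the other receptors, 6 of 8 were tested, and 2 passed for gefitinib in monoculture, the type I receptors ACVR1 (0.42 ± 0.11) and ACVR1B (0.36 ± 0.12), both upward. The same 2 were lower in co-culture under gefitinib, at -0.43 ± 0.11 and -0.41 ± 0.12. With median scaling 0 of the 6 passed in either comparison, and the calls for gefitinib in monoculture ended without any 1 of 4 arrays for ACVR1 (DMSO monoculture 2 and 3, gefitinib monoculture 1 and 2, change 0.367 to 0.42) and of 8 for ACVR1B (the 6 monoculture arrays, co-culture 2 and gefitinib co-culture 2, change 0.34 to 0.385). Those under gefitinib ended without gefitinib monoculture 2 or gefitinib co-culture 1 for ACVR1 (change -0.395 to -0.339) and without any 1 of gefitinib monoculture 1 and 2 and gefitinib co-culture 3 for ACVR1B (change -0.409 to -0.319). Among SMADs and intracellular regulators, 21 of 24 were tested, 9 rose and 0 fell with gefitinib in monoculture, and 8 were lower and 0 higher in co-culture under gefitinib. SMAD7, the inhibitory SMAD induced by the pathway, rose by 1.01 ± 0.16 (limma adjusted p = 8.78e-04), and NEDD4L, a ubiquitin ligase of SMAD2 and SMAD3, by 0.92 ± 0.12 (limma adjusted p = 1.68e-04). On the authors' normalized values these rises were 0.572 and 0.578. With median scaling 3 of the 21 were lower in co-culture under gefitinib.

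Of 36 known targets of TGF-beta or activin, 30 were tested, and with gefitinib in monoculture 11 rose and 6 fell, so the list did not move one way. NEDD9, a scaffold protein of focal adhesions, rose by 2.38 ± 0.15 (limma adjusted p = 7.39e-07), or by 1.22 on the authors' normalized values and 1.26 with the mean of its probes. TAGLN, an actin-binding protein, rose by 1.95 ± 0.14 (limma adjusted p = 1.92e-06). TGM2, tissue transglutaminase, fell by 2.49 (log2 change -2.49 ± 0.12, limma adjusted p = 1.78e-07). The chosen probe of ANGPTL4, a secreted inhibitor of lipoprotein lipase, gave -2.67 ± 0.11, while 1 of its 2 other probes was opposite in sign and the mean of its probes gave -0.873. Gefitinib in co-culture raised 2, TAGLN (1.22 ± 0.14, limma adjusted p = 0.00192) and COL4A1, a basement membrane collagen (0.58 ± 0.12, limma adjusted p = 0.0474), and lowered 3, among them TGM2 (-0.83 ± 0.12) and ANGPTL4 (-0.98 ± 0.11, with 2 of its 2 other probes opposite in sign). The call of COL4A1 in co-culture ended without any 1 of the 12 arrays (adjusted p = 0.0545 to 0.142, change 0.505 to 0.634). Those of TAGLN, TGM2 and ANGPTL4 ended when only the arrays compared were fitted, and those of TGM2 and ANGPTL4 also with the mean of the probes (-0.388, adjusted p = 0.113, and -0.252, adjusted p = 0.611). Under gefitinib, co-culture raised 6 and lowered 15 of the 30, with TGM2 at 2.31 ± 0.12, TMEM158, a membrane protein known from RAS-induced senescence, at 2.15 ± 0.12, NEDD9 at -2.17 ± 0.15 (1 of its 3 other probes opposite in sign) and COL4A1 at -2.07 ± 0.12. Without the drug 2 were higher and 3 lower in co-culture, COL4A1 (-0.94 ± 0.12) and TPM1, a tropomyosin (-0.70 ± 0.11), being the largest falls. The rises were TGM2 (0.66 ± 0.12, with 1 of its 2 other probes opposite in sign, and 0.255 with the mean of the probes, adjusted p = 0.219) and VEGFA, an angiogenic growth factor (0.55 ± 0.13), whose call ended without any 1 of 11 arrays, all but gefitinib co-culture 3 (change 0.424 to 0.619).

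**Figure D4:**
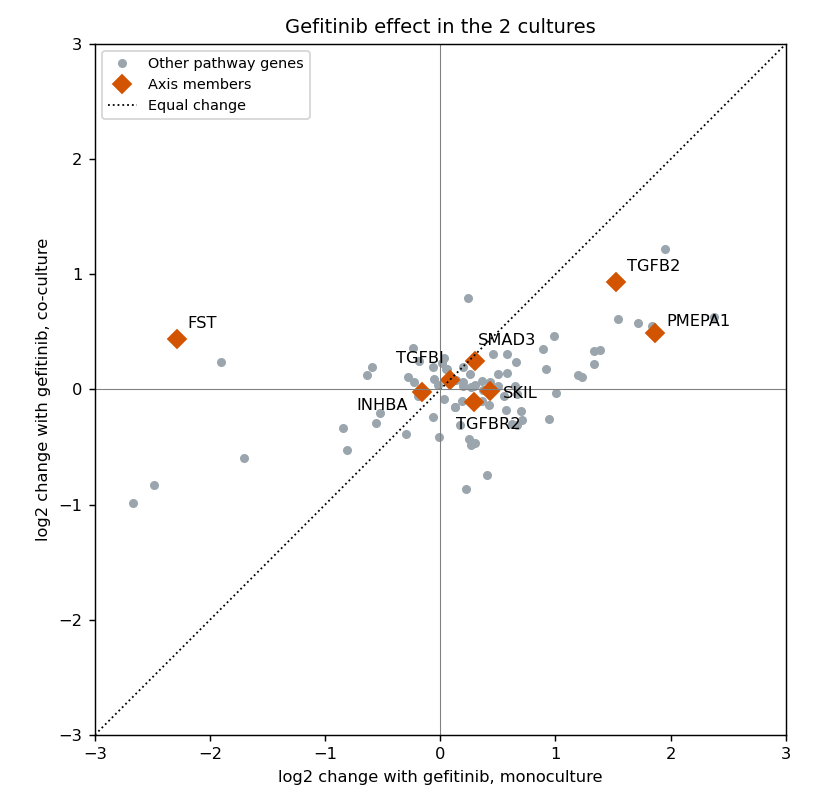
The log2 change with gefitinib in monoculture (horizontal axis) against that in co-culture (vertical axis) for the 8 members tested and the other pathway genes, 1 probe per gene; the dotted line marks equal change. FST lies at -2.29 and 0.44, PMEPA1 at 1.87 and 0.49, and TGFB2, at 1.53 and 0.93, is the member nearest to the dotted line among these 3.

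Of the 80 tested pathway genes outside the members, 36 were called for gefitinib in monoculture, and 5 of these (13.9%) were also called in co-culture. Of all 3776 genes called in monoculture, 117 (3.1%) were called in co-culture too, where 1.05% of all genes tested were called. All 36 changed less in co-culture, where 98.5% of the 3776 did, and 26 (72.2%) kept their sign, where 62.6% of the 3776 did. The smaller change in co-culture was therefore near the background of all genes. The sign of FST turned, from -2.29 in monoculture to 0.44 in co-culture, the latter not past the threshold.

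Markers of other cell types moved beside these genes. Of 17 fibroblast markers 8 were tested. In monoculture, where no fibroblasts were present, gefitinib raised 4 and lowered 0, against 15.1% and 12.7% of all genes. LUM rose by 1.41 ± 0.25 and COL1A1 by 1.30 ± 0.32, or by 0.681 and 0.535 on the authors' normalized values. The call of COL1A1 ended without DMSO monoculture 2 (change 1.08). The summed linear level of the 17 markers was 2369 to 2445 on the arrays of DMSO monoculture, 4891 to 5426 in gefitinib monoculture, 2734 to 3047 in co-culture and 2509.5 to 3002 in gefitinib co-culture. It was thus highest where PMEPA1 and TGFB2 were highest and FST lowest, and its part in these results was not tested. Most of the sum was VIM, at 1787 to 1835, 3811 to 4355, 2201 to 2579.7 and 1968 to 2489.7 in the same order. Without VIM, a sum added after its levels were seen, the other 16 markers gave 553 to 658, 939 to 1080.1, 467 to 554 and 500.1 to 542. The co-cultures thus lay above DMSO monoculture in VIM and not in the sum of the other markers. COL5A1 was the brightest marker in that sum, which also holds markers near background, among them FAP, PDGFRA, PDGFRB, THY1 and POSTN, not detected on any array. The mean levels of COL5A1, LUM, COL1A1 and COL5A2 were 7.76, 5.52, 5.16 and 4.47 with DMSO and 7.42, 4.69, 4.69 and 4.33 in co-culture. Those of the other tested markers besides VIM, namely COL1A2, DCN and COL6A3, were 4.67, 4.67 and 4.41 with DMSO and 4.81, 4.76 and 4.58 in co-culture. LUM and COL1A1 were each detected on 1 of 3 co-culture arrays, and 0 of the 8 tested markers passed for co-culture without the drug, against 3.11% of all genes. The summed level of the 11 epithelial markers was 33318 to 34168, 31826 to 32499.8, 30818.5 to 32848 and 26830 to 28614 in the same order of groups, and its part was not tested either.

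The genes whose pattern was most like that of the members were ranked by Pearson correlation over the 12 arrays, which share the 4 groups. Changes like those of the member therefore follow from this choice and are no separate result. Nearest to FST were MDC1 (0.989), VRK1 (0.989), TYMS (0.988), GINS2 (0.987) and CKS2 (0.987), genes known from DNA damage signalling, DNA replication and the cell cycle. Their changes with gefitinib in monoculture lay between -2.00 (GINS2) and -1.19 (MDC1), and those in co-culture between 0.08 (CKS2) and 0.34 (GINS2). Nearest to PMEPA1 were DNAJB2 (0.996), CRISPLD2 (0.995), COL4A1 (0.995), CYB5A (0.994) and KRT80 (0.993), whose changes with gefitinib in monoculture lay between 0.72 (KRT80) and 1.71 (COL4A1). COL4A1 stands on the target list too.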

How the data were processed

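The authors deposited a scanner table with a linear intensity per probe and, per the file headers, a detection p-value for each intensity. They also deposited a table of normalized intensity values, which are linear although the rule for the members calls them log2, and the log2 was therefore taken here. The authors' normalization, software and chip positions are not given in the sources used here. In the scanner table the monoculture arrays were in the order of the probe names (r of at least 0.999883 with the normalized values), and the co-culture arrays were not (r of at most 0.00105). The rows of the latter were assigned through their 6 normalized values. All 48106 matches were mutual (100%), and 48104 shuffled monoculture rows were returned at 100%.

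Of 48107 probes, 3 were left out for missing values. Of the rest, 30113 had 1 gene symbol in the platform annotation, 8 had several and 17983 were unnamed here. Intensities were processed with limma 3.58.1 in R 4.3.3 by neqc (offset 16, background from the detection p, quantile normalization, log2). All 12 arrays entered 1 limma fit with a mean per group and two-sided tests, adjusted by Benjamini-Hochberg over 25896 probes at 0.05. Errors of changes are standard errors. The fit was tested on simulated data. Values of list genes come from the kept probe with the highest mean.

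The members, the lists and the alternatives were chosen with earlier results of these data known. From each list, the 2 genes of largest change in each direction among those called were named, and for FST and PMEPA1 the 5 most correlated genes. Samples with the same replicate number did not deviate together (r of -0.02828 to 0.07226 over 18 pairs), so the numbers were not used as pairs. All deposited sample columns were used, and the number of arrays limits the precision.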

Additional observations from a re-analysis of the deposited data

Results flagged for a closer look

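The gefitinib effect differed between co-culture and monoculture, by the limma test of the difference itself, for 4 of the 12 member probes tested. These were 2 of FST and 2 of PMEPA1, against 10.9% of all probes. The effect also differed for 28 of the 80 tested genes of the pathway lists, 4 upward and 24 downward. This was 35.0%, against 14.2% of all genes, in lists chosen with earlier results of these data known. Of the 28, the rule for named genes gave 11. Each difference is given as the log2 effect in co-culture minus that in monoculture. For FST the difference was 2.72 with the brighter probe (adjusted p = 1.34e-05). The other probe measured 2.07 (adjusted p = 4.50e-04), but it was not detected on any array of gefitinib monoculture. As a bound the difference was at least 1.96 in the intensities as normalized here, and it measured 0.696 on the authors' normalized values. For PMEPA1 it was -1.38 (adjusted p = 1.28e-04) and -1.91 (adjusted p = 3.80e-05). Among ligands and activators, LTBP3, a latent TGF-beta binding protein, had -1.15 (adjusted p = 0.00565) and INHBE -1.08 (adjusted p = 0.0283). INHBE was detected on 1 of 3 arrays in each monoculture group, 3 of 3 in co-culture and 0 of 3 in gefitinib co-culture, so its value compares groups mostly not above background, and it was -0.359 on the authors' normalized values. The mean level of LTBP3 was 6.55 with DMSO, 6.96 with gefitinib, 6.61 in co-culture and 5.87 in gefitinib co-culture. The follistatin-like genes FSTL1 and FSTL3 had -1.11 (adjusted p = 0.00646) and -1.04 (adjusted p = 0.00541), opposite in sign to FST. The receptor ACVR1 had -0.56 (adjusted p = 0.0458), SMAD7 had -1.04 (adjusted p = 0.0131) and PPM1A, a phosphatase of SMAD2 and SMAD3, -0.98 (adjusted p = 0.0255), with 2 of its 4 other probes opposite in sign. Among targets, TMEM158 had 2.15 (adjusted p = 2.43e-05), ANGPTL4 1.69 (adjusted p = 5.99e-05, with 1 of its 2 other probes opposite), NEDD9 -1.75 (adjusted p = 3.33e-04, with 1 of 3 opposite) and CDKN2B, a CDK inhibitor induced by TGF-beta, -1.29 (adjusted p = 4.55e-04). With the mean of the probes of a gene, the differences of ANGPTL4 (adjusted p = 0.0885), PPM1A (adjusted p = 0.506) and SMAD7 (adjusted p = 0.0556) were not called. Left-out arrays ended the call of INHBE without any 1 of 6 arrays (DMSO monoculture 1 and 3, gefitinib monoculture 2, co-culture 1 and 2, gefitinib co-culture 1; difference -1.07 to -0.905), of PPM1A without any 1 of 7 (DMSO monoculture 2 and 3, gefitinib monoculture 2 and 3, co-culture 1 and 2, gefitinib co-culture 1; -0.981 to -0.831) and of ACVR1 without any 1 of 11, all but gefitinib co-culture 3 (-0.607 to -0.463).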

How the results depend on the processing

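Called changes of member probes held their direction in every alternative run, and the call held in 195 values and ended in 20; with 1 array left out it held in 260 and ended in 28. Counts for gefitinib in co-culture and for co-culture without the drug depended most on the settings. The 200 probes called for gefitinib in co-culture became 418 on the authors' normalized values, 427 with no background correction, 347 with detection on all 12 arrays, 467 with an intensity trend and 21 with only the compared arrays, and 107 to 181 with 1 array left out. The 2 member probes became 3 on the authors' normalized values, with no background correction and with an intensity trend, 1 with median scaling, 1 with no detection filter and 0 with only the compared arrays, and 1 to 2 with 1 array left out. The 954 probes called for co-culture without the drug became 1656, 1665, 1466 and 1761 under the first 4 of these settings, 446 with only the compared arrays, 480 with 1 probe per gene, 453 with the mean of the probes, and 436 to 945 with 1 array left out. Its 5 member probes became 3 with median scaling, 3 with 1 probe per gene and 2 with only the compared arrays, and 2 to 5 with 1 array left out; the 8 under gefitinib became 5 with 1 probe per gene and 5 with the mean of the probes, where fewer probes were tested, and 7 to 9 with 1 array left out. With median scaling the split of calls went from 2949 up and 2739 down to 2113 and 3181 for gefitinib in monoculture, and from 623 and 331 to 538 and 159 for co-culture without the drug. It went from 3257 and 3675 to 3583 and 2840 for co-culture under gefitinib, and from 1369 and 1443 to 1291 and 1014 for the difference of effects. For gefitinib in co-culture it went from 74 and 126 to 44 and 111. Of 68 called changes of named genes outside the members, 66 were smaller on the authors' normalized values, 22 of them by over 1.5 times and at most 3.01 times, and 1 (MMP9) was not called. Some calls of such genes that ended with 1 array left out also ended under other alternatives, counted here with the fit of only the arrays compared. For co-culture without the drug these were MMP9 (7 alternatives), ENG and VEGFA (4 each), INHBE (2) and THBS1 (1, that fit). The same held for COL4A1 with gefitinib in co-culture (4), TGFBR3 under gefitinib (3) and the difference of effects of ACVR1 (3). Apart from the settings that test fewer probes or arrays, the cause was not tested. With the replicate number as a block, the calls for gefitinib in co-culture were 131 probes and 1 member probe, and both narrow calls of the dimmer FST probe ended; the pairing was not borne out by the arrays.

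The sign reversed only for changes near 0 that were not called. With median scaling SKIL with gefitinib in co-culture was 0.00843, and the difference of effects was 0.0306 for TGFBI and 0.0371 for SMAD3. With the mean of its probes TGFBR2 with co-culture without the drug was -0.0362. With 1 array left out, TGFBR2 there ranged from -0.0169 to 0.067. The gefitinib effect of INHBA ranged from -0.352 to 0.0161 in monoculture and from -0.0541 to 0.0161 in co-culture, that of SKIL in co-culture from -0.206 to 0.15. The difference of effects ranged from -0.0353 to 0.333 for INHBA, from -0.0709 to 0.0700 for TGFBI and from -0.11 to 0.0165 for SMAD3. The chip could not be used as a block, since no file read here gives it. Levels of INHBA, SKIL and the dimmer FST and PMEPA1 probes lay close to background, which limits their changes to bounds or wide intervals.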

Other observations

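Epithelial genes also moved, and not in one direction. Of the 10 epithelial markers tested, gefitinib in monoculture raised 2 and lowered 3, against 15.1% and 12.7% of all genes. The simple-epithelium keratins KRT18 and KRT8 fell, with log2 changes of -1.60 ± 0.13 (limma adjusted p = 4.73e-06) and -1.42 ± 0.13 (limma adjusted p = 1.34e-05), while the tight junction gene CLDN7 rose by 0.62 ± 0.12 (limma adjusted p = 0.00348). Under gefitinib, KRT18 (1.30 ± 0.13) and KRT8 (0.80 ± 0.13) were higher and CLDN7 (-0.78 ± 0.12) and KRT7 (-0.55 ± 0.09) lower in co-culture. With median scaling CLDN7 in monoculture was not called (adjusted p = 0.0586). With the mean of its probes KRT18 gave -0.851 for gefitinib in monoculture and 0.86 for co-culture under gefitinib. The other rise in monoculture, that of KRT7 (0.32 ± 0.09), lost its call without any 1 of the 6 monoculture arrays (change 0.299 to 0.336). Its call also ended with median scaling and when only the arrays compared were fitted. VIM, the mesenchymal intermediate filament vimentin, had mean levels of 10.82 with DMSO, 12.00 with gefitinib, 11.19 in co-culture and 11.17 in gefitinib co-culture, and the difference of its gefitinib effects was -1.19 ± 0.17 (limma adjusted p = 0.00108). COL5A1, a fibrillar collagen, had 7.76, 9.05, 7.42 and 7.19 in the same order, with a difference of -1.53 ± 0.20 (limma adjusted p = 7.22e-04).

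Gefitinib co-culture and DMSO monoculture differ in both drug and culture and were not compared by a test. Their mean levels were 8.18 and 8.11 for FST, 7.28 and 7.33 for TGFB2, 8.54 and 8.92 for PMEPA1, 9.17 and 9.09 for SMAD3 and 13.39 and 13.87 for TGFBI.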
